A study of Mus musculus with 4 samples.

Results

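Footprints were read for 10 genes of Nodal and BMP signalling, taken by symbol from a table of 25170 genes: the ligands Nodal and Bmp4, the co-receptor Tdgf1, the extracellular inhibitors Lefty1 and Lefty2, the signal mediators Smad2 and Smad4, and the target genes Id1, Id2 and Id3. All 10 had a row. They come from ribosome profiling of wild-type E14 cells, mouse embryonic stem cells of inner cell mass origin kept on gelatin in serum with leukemia inhibitory factor. Cells of 1 group were kept in 1 µM PD and cells of the other in DMSO, a common solvent for compounds, both for 3 passages, with 2 libraries a group. The labels name the compound only as PD, give 1 cell line and 1 dose, and leave it unsaid if replicates are separate cultures. A p-value here therefore weighs differences only against the spread of these libraries, which may be technical. The comparison belongs to work on how the kinase Mek acts on gene expression after transcription. Footprints read here without RNA levels cannot show that alone.

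Nodal is a secreted ligand of the TGF-beta family. It binds activin receptors together with Tdgf1 (Cripto), the receptors phosphorylate Smad2 and Smad3, and these join Smad4 and the DNA-binding factor Foxh1 in the nucleus. Among the genes so switched on are Nodal itself and Lefty1 and Lefty2, whose proteins block Nodal and its co-receptor and close a feedback loop. Bmp4, of the same family, acts through Smad1 and Smad5, which also join Smad4, and its best known targets are the Id genes. Id proteins bind E proteins and keep them off DNA, and in mouse embryonic stem cells grown in serum they are known for holding back differentiation beside leukemia inhibitory factor.

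A footprint is a short RNA piece shielded by a ribosome, so a gene's value depends on its mRNA level and on its ribosome density, which cannot be told apart here. Fewer cells that express a gene and less of its RNA per cell cannot be told apart either. Levels are the deposited FPKM (fragments scaled by gene length and library size), and the bounds quoted are the deposited confidence bounds, at a level the sources used here do not give. Read depth, recovered from the steps in the values, was 0.464 in PD replicate 1, 0.201 in PD replicate 2 and 1.42 in DMSO replicate 2, relative to DMSO replicate 1, so both PD libraries were the shallower ones. Reads quoted are the smallest whole numbers that fit. If the real reads of a gene are a multiple of these, intervals made from them, which cover counting error only, are too wide. The 9 embryonic stem cell markers, Pou5f1, Sox2 and Nanog among them, were above 0 in all 4 libraries. Their FPKM summed to 2244 and 3881 in PD libraries and to 2282 and 2264 in DMSO libraries. Most of each sum was Dppa5a, at 1421 and 3203 FPKM in PD libraries and 1414 and 1633 in DMSO libraries. Klf4 was the lowest, at 0.819 and 3.02 FPKM in PD libraries and 2.96 and 0.859 in DMSO libraries. All 6 mesoderm markers stayed below 1 FPKM in each library, the 7 endoderm markers summed to 1.34 and 0.685 FPKM in PD libraries and 1.81 and 0.468 in DMSO libraries, and the 6 trophectoderm markers, mostly Krt18 and Tfap2c, to 6.30 and 15.5 in PD libraries and 8.79 and 17.3 in DMSO libraries. The 8 feeder fibroblast markers summed to 210 and 192 FPKM in PD libraries and to 109 and 32.6 in DMSO libraries, nearly all of it Vim. Over the 4 libraries Thy1 ranged from 1.13 to 2.10 FPKM, Acta2 from 0.772 to 3.19 and Col1a1 from 0.244 to 1.12. Postn was at 0, and Col1a2, Col3a1 and Lox were below 1. The 6 neural markers, led by Stmn2 and Tubb3, summed to 322 and 332 FPKM in PD libraries and to 193 and 153 in DMSO libraries. What part these cells or genes have in the values below was not tested.

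Differences between PD and DMSO were tested with limma on log2(FPKM + 1) over 9741 genes averaging 1 FPKM or more, a filter that all 10 genes passed. None of the 10 passed at an adjusted p of 0.05, and 0 had an unadjusted p under 0.05, where 561 of the 9741 tested genes had one. Over all tested genes 0.0308% passed as higher in PD, 0.226% as lower and 0.257% in either direction. With voom on recovered reads, which were had for 8 of the 10, 0 passed as well. With 2 libraries against 2, an exact two-sided permutation test of a single gene cannot go below p = 0.333. Both PD libraries lay above both DMSO libraries for 2 of the 10 genes, Smad2 and Smad4, where 17.5% of all tested genes did. Both lay below for 2, Bmp4 and Lefty2, where 18.3% did. Together that is 4 of 10 against 35.8%, a share near that of all genes. The median log2 difference was -0.02 over the 10 genes and -0.02 over all tested genes.

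**Figure D1:**
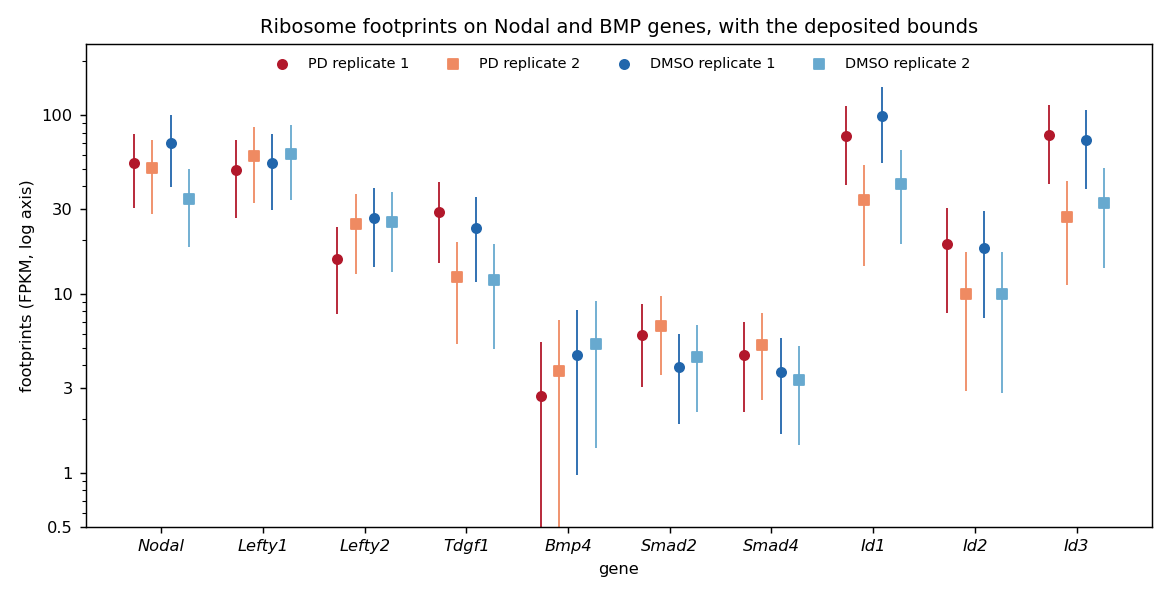
FPKM of the 10 genes (log axis) in each library, PD libraries in red and DMSO libraries in blue, circles for replicate 1 and squares for replicate 2, with vertical lines for the deposited bounds (those of Bmp4 in both PD libraries reach below the axis). The libraries of the 2 treatments part only for Smad2, Smad4, Bmp4 and Lefty2, while circles lie above squares in both treatments for Tdgf1, Id1, Id2, Id3 and Nodal, for Nodal only slightly in PD.

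Nodal (mm10, chromosome 10, 61417972 to 61425338) had 54.4 and 50.4 FPKM in PD libraries, against 70.1 and 34.0 FPKM in DMSO libraries. Both PD values lay between the 2 DMSO values, so the groups overlapped. The means were 52.4 ± 2.79 FPKM in PD and 52.0 ± 25.5 in DMSO (SD, n = 2 each), and the log2 difference was 0.10 (SE 0.42, 95% interval -1.02 to 1.22, limma adjusted p = 0.978). The DMSO libraries were further apart than counting allows, with 95% Poisson intervals of 64.6 to 75.8 FPKM on 614 reads and of 30.8 to 37.4 on 422 reads. Which of them is left out decides the sign: the log2 difference was 0.61 without DMSO replicate 1 and -0.41 without DMSO replicate 2.

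Tdgf1, the membrane-anchored co-receptor without which Nodal does not signal well (chromosome 9, 110939608 to 110946158), had 28.6 and 12.4 FPKM in PD libraries and 23.3 and 12.0 in DMSO libraries. Replicate 1 was the higher library in both treatments, and the groups overlapped. The log2 difference was 0.17 (SE 0.54, limma adjusted p = 0.968). Its reads, the smallest that fit, were few, 53 and 10 in PD libraries and 93 and 68 in DMSO libraries. The RefSeq table also lists the pseudogenes Tdgf1-ps1 and Tdgf1-ps2, and the sources used here do not say how reads shared with them were counted.

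Lefty1 and Lefty2 are near copies of each other and neighbours on chromosome 1, at 180935022 to 180938401 and at 180893108 to 180899107, with 35914 bases between them. Reads that match both can have gone to either, so their split is uncertain, and Lefty1 also overlaps the noncoding gene Gm39715. Lefty1 had 49.5 and 58.9 FPKM in PD libraries, against 53.9 and 60.8 FPKM in DMSO libraries. It was the steadiest of the 10 genes, its highest library being 1.23 times its lowest, and the groups overlapped. Its log2 difference was -0.08 (SE 0.25, 95% interval -0.76 to 0.60, limma adjusted p = 0.966). Lefty2 had 15.8 and 24.5 FPKM in PD libraries, against 26.6 and 25.1 FPKM in DMSO libraries. Both PD values lay below both DMSO values, but PD replicate 2 only just. The means were 20.1 ± 6.19 FPKM in PD and 25.9 ± 1.02 in DMSO (SD, n = 2 each), and the log2 difference was -0.38 (SE 0.31, limma adjusted p = 0.86). Without PD replicate 1 the Lefty2 difference was -0.07, and without PD replicate 2 it was -0.68. The sum of both Lefty genes was 65.3 and 83.5 FPKM in PD libraries and 80.5 and 85.9 in DMSO libraries.

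Smad2 and Smad4, the receptor-activated mediator of Nodal and the partner that both branches share, are on chromosome 18. Smad2 had 5.88 and 6.65 FPKM in PD libraries, against 3.92 and 4.44 FPKM in DMSO libraries. Both PD libraries were above both DMSO libraries, by more than either pair of replicates differed. The means were 6.27 ± 0.54 FPKM in PD and 4.18 ± 0.37 in DMSO (SD, n = 2 each), a ratio of 1.5, and the log2 difference was 0.49 (SE 0.27, 95% interval -0.23 to 1.20, limma adjusted p = 0.837). Smad2 rested on 108 and 53 reads in PD libraries and on 155 and 249 in DMSO libraries, and its Poisson intervals were 4.83 to 7.10 and 4.98 to 8.70 FPKM in PD libraries and 3.32 to 4.58 and 3.91 to 5.03 in DMSO libraries. Those of both PD libraries overlap that of DMSO replicate 2. Smad4 had 4.59 and 5.21 FPKM in PD libraries, against 3.67 and 3.29 FPKM in DMSO libraries. The groups again did not overlap, with a ratio of means of 1.41. Its log2 difference was 0.40 (SE 0.27, 95% interval -0.34 to 1.13, limma adjusted p = 0.837). Each of these differences stayed above 0 whichever library was left out, at 0.41 to 0.56 for Smad2 and 0.32 to 0.47 for Smad4, and neither passed in any setting that tested it. Smad4 was not tested under the filter of 5 FPKM or with voom. In the planned rescaling without small RNA genes, which moved the median of all genes to -0.39, they were 0.13 and 0.06.

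Bmp4 (chromosome 14, 46379524 to 46390669 in the deposited locus, which also takes in the noncoding genes Gm15217 and Gm15222) had the lowest mean of the 10 over the 4 libraries. It had 2.69 and 3.71 FPKM in PD libraries, against 4.54 and 5.29 FPKM in DMSO libraries. Both PD values lay below both DMSO values. The means were 3.20 ± 0.73 FPKM in PD and 4.91 ± 0.53 in DMSO (SD, n = 2 each), and the log2 difference was -0.50 (SE 0.30, 95% interval -1.30 to 0.30, limma adjusted p = 0.837). The deposited bounds were wide, from 0 to 5.40 and from 0.308 to 7.12 FPKM in PD libraries and from 0.97 to 8.10 and from 1.38 to 9.19 in DMSO libraries. Leaving out 1 library gave differences from -0.68 to -0.32. Across the 10 genes the deposited bounds of PD and DMSO libraries overlapped in all 4 pairings, except for Id1, where they overlapped in 3 of 4.

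Id1, Id2 and Id3 encode small helix-loop-helix proteins without a DNA-binding region, which pair with E proteins and so disable them. Id1 (chromosome 2, 152736251 to 152737410) had 76.9 and 33.7 FPKM in PD libraries, against 99.1 and 41.4 FPKM in DMSO libraries. Id3 (chromosome 4, 136143822 to 136145392) had 77.5 and 27.1 FPKM in PD libraries, against 73.0 and 32.3 FPKM in DMSO libraries. Id2 (chromosome 12, 25093799 to 25096092) had 19.1 and 10.02 FPKM in PD libraries, against 18.2 and 9.97 FPKM in DMSO libraries. In each of the 3 genes replicate 1 was high and replicate 2 low in both treatments, and the groups overlapped. The log2 differences were -0.33 with an SE of 0.62 for Id1, -0.08 with an SE of 0.68 for Id3 and 0.04 with an SE of 0.47 for Id2 (limma adjusted p = 0.938, 0.992 and 0.995). Their intervals were wide, -1.99 to 1.34 for Id1, -1.89 to 1.74 for Id3 and -1.21 to 1.29 for Id2. Their sum was 174 and 70.8 FPKM in PD libraries and 190 and 83.7 in DMSO libraries.

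**Figure D2:**
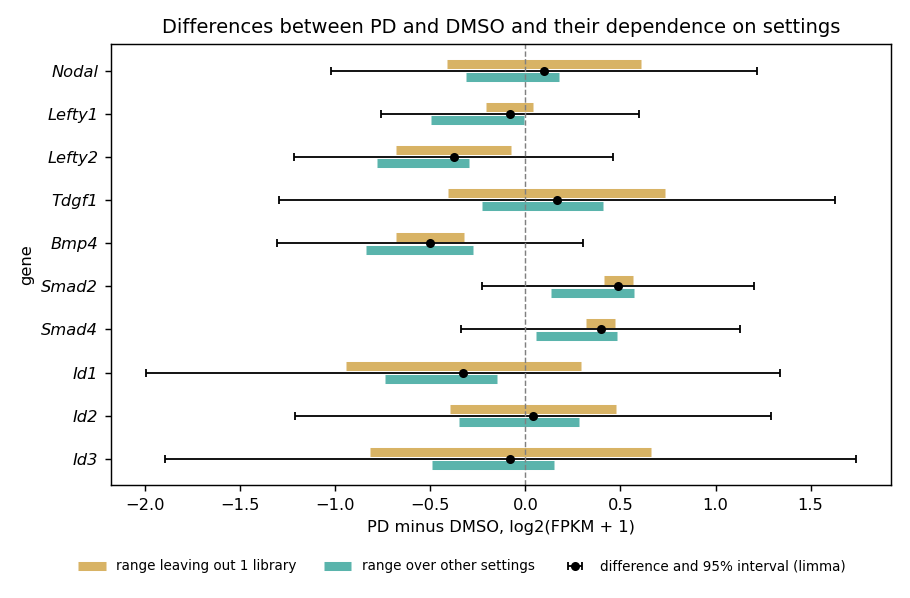
Difference between PD and DMSO on the log2(FPKM + 1) scale for the 10 genes, with the 95% interval from limma (black), the range when 1 library is left out (tan) and the range over the other settings (teal). The black intervals all cross 0, and both coloured ranges stay on 1 side of 0 only for Lefty2, Bmp4, Smad2 and Smad4. For Lefty1 and Id1 the teal range alone does so.

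Replicates of 1 treatment lay far apart in the Id genes and Tdgf1, and the same replicate was high in both treatments. Id1 in replicate 1 was 2.28 times its value in replicate 2 of PD and 2.39 times in DMSO. For Id3 these ratios were 2.86 in PD and 2.26 in DMSO, for Id2 1.91 and 1.82, and for Tdgf1 2.30 and 1.94. Of all tested genes, 1.07% had replicate 1 above replicate 2 in both treatments by at least the smaller gap of Id1. The shares were 1.09% for Id3, 2.1% for Tdgf1 and 2.94% for Id2. Genes with gaps as large but replicate 2 the higher are not in these shares. The gaps of Id1 and Id3 exceeded counting error in both treatments: Poisson intervals for Id1 ran from 63.8 to 91.9 and from 21.3 to 50.5 FPKM in PD libraries and from 88.8 to 110 and from 35.9 to 47.6 in DMSO libraries. On the smallest reads that fit, they were separate for Tdgf1 in DMSO alone. For Id2, with as few as 5 reads, they were separate in neither treatment. If the real reads are a multiple, the intervals are narrower, so their overlap does not show that counting error covers these gaps. Nodal had a large gap in DMSO, 2.06 times, but not in PD, 1.1 times. Lefty1, Bmp4 and Smad2 had the lower value in replicate 1 in both treatments, with ratios from 0.724 to 0.886. Replicate 1 was the deeper library in PD and the shallower one in DMSO, and the part of depth in these gaps was not tested. The labels give the shared numbers no meaning, and whether same-numbered libraries share a batch was not tested.

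**Figure D3:**
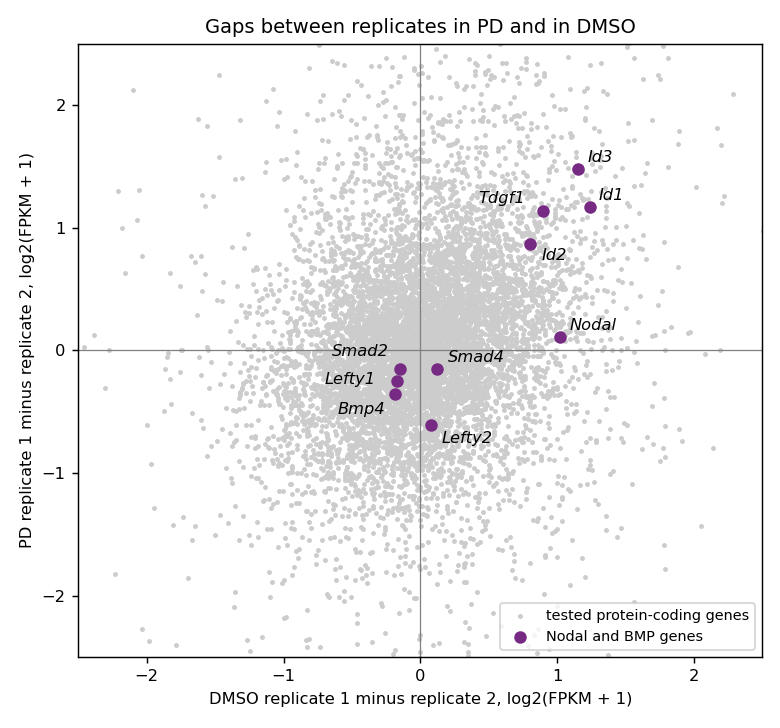
Gap between replicate 1 and replicate 2 on the log2(FPKM + 1) scale in PD (vertical axis) and in DMSO (horizontal axis), with the 10 genes in purple and 8897 tested protein-coding genes in grey, of which 115 lie outside the axes. Id1, Id2, Id3 and Tdgf1 sit together at the upper right, Nodal at the right, Lefty1, Bmp4, Smad2 and Smad4 near the centre and Lefty2 below it.

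Of the 10 genes, 5 had a promoter in the RefSeq table, whose build, GRCm38.p6, is that of mm10. The 250 bases before the start are shown for Tdgf1, Id2 and Id3, 5′ to 3′ along the gene. In these 3 of the 5, replicate 1 was well above replicate 2 in both treatments. Capitals mark the short SMAD site CAGAC, the GC-rich SMAD site GGCGCC, the CCAAT box and the GC box GGGCGG, each on either strand.
Tdgf1 (chr9:110946159-110946408, minus strand): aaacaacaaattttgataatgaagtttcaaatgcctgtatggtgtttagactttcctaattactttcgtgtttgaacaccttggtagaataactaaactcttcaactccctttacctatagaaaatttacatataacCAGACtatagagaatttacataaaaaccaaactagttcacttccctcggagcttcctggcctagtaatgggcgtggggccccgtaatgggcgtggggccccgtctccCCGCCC
Id2 (chr12:25096093-25096342, minus strand): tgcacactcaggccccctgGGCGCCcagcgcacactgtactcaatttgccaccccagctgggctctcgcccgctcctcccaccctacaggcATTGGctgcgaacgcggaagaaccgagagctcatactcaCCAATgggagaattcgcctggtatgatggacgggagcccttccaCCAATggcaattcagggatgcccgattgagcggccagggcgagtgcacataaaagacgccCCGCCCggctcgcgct
Id3 (chr4:136143572-136143821, plus strand): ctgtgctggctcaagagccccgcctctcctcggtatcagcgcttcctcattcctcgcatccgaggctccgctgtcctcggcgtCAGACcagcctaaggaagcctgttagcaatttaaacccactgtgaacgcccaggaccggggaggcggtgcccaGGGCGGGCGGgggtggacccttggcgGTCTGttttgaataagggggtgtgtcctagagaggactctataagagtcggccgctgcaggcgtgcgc
The short SMAD site occurred once upstream of Tdgf1 and in 2 places upstream of Id3, and in 42.2% of the 32851 promoters of this length in the table. The GC-rich SMAD site occurred once, upstream of Id2, and in 9.59% of all promoters. The CCAAT box had 3 matches upstream of Id2 (33.8% of promoters held 1 or more), and the GC box was in all 3 windows, with 2 overlapping matches in that of Id3 (32.7% of promoters). Neither FoxH1 form searched, AATCCACA and AATACACA, was in these windows, and they were in 0.718% and 0.895% of all promoters. The windows of Nodal and Bmp4, which are not shown, held none of these SMAD or FoxH1 sites. That of Nodal held 1 CCAAT box and that of Bmp4 held 1 GC box. These matches describe the letters and say nothing of binding.

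Levels were compared by FPKM, which is scaled by gene length, and not by footprints per coding base. The order below is one of FPKM alone and can differ by another measure. On the smallest reads that fit, Smad2 had 565 over the 4 libraries and Id2 had 107, although Id2 is the higher in FPKM. Id1, Lefty1, Id3 and Nodal averaged 62.8, 55.8, 52.5 and 52.2 FPKM over the 4 libraries and overlapped one another, at percentiles of 89.8 to 91.8 among the 8897 tested protein-coding genes. Lefty2, Tdgf1 and Id2 averaged 23.0, 19.1 and 14.3 FPKM, and neighbours in this order overlapped. Smad2, Smad4 and Bmp4 averaged 5.22, 4.19 and 4.06 FPKM and overlapped, at percentiles of 37.4 to 44.5, and their highest library, 6.65 FPKM, lay below the lowest of Id2, 9.97. The lowest value of Nodal, 34.0 FPKM, lay above the highest of Lefty2, 26.6, while the lowest of Id3, 27.1, lay below the highest of Tdgf1, 28.6. Bmp4 stood 8th of the 10 by its DMSO mean and 10th by its PD mean, with Smad2 8th and Smad4 9th in PD.

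Ratios between genes of the same library do not depend on how libraries were scaled. Id1 over Id3 was 0.993 and 1.24 in PD libraries, against 1.36 and 1.28 in DMSO libraries. Id1 over Id2 was 4.02 and 3.36 in PD libraries, against 5.46 and 4.15 in DMSO libraries. Both ratios were lower in each PD library than in each DMSO library, but the gap between the treatments was smaller than the gap between replicates of a treatment. They were not tested. Smad2 over Smad4 was the steadiest, 1.28 and 1.28 in PD libraries and 1.07 and 1.35 in DMSO libraries. Lefty1 over Nodal, inhibitor over ligand, was 0.911 and 1.17 in PD libraries and lay within the 0.769 and 1.79 of DMSO libraries. Id1 over Bmp4 followed the replicate number, at 28.6 and 9.06 in PD libraries and 21.8 and 7.84 in DMSO libraries.

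The other genes of both branches were read from a list of 58 further genes in 13 roles, of which 27 passed the filter. None passed the test, against 0.257% of all tested genes, and 2 of the 27, Pcsk6 and Fst, had an unadjusted p under 0.05 (limma), where 561 of 9741 genes did. Both PD libraries lay above both DMSO libraries for 3 of the 27 and below for 6, where 17.5% and 18.3% of all genes did. The median log2 difference of the 27 was -0.07. The values that follow are of the 2 highest genes of each role.

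Pcsk6, a convertase that cuts the Nodal precursor to its active form, had 10.7 and 15.1 FPKM in PD libraries, against 5.48 and 3.87 FPKM in DMSO libraries. The groups did not overlap, and the ratio of means was 2.75. Its log2 difference was 1.29 (SE 0.32, limma adjusted p = 0.766). Fst, which encodes follistatin, a secreted trap for activins, had 5.73 and 4.10 FPKM in PD libraries, against 2.03 and 1.55 FPKM in DMSO libraries, with a log2 difference of 1.07 (limma adjusted p = 0.806). Foxh1, the factor that brings Smad2 and Smad4 to DNA, had 24.0 and 10.1 FPKM in PD libraries, against 35.4 and 24.9 FPKM in DMSO libraries. Its groups did not overlap, yet PD replicate 1 came close to DMSO replicate 2, and the log2 difference was -0.88 (SE 0.49, limma adjusted p = 0.837). Without PD replicate 2 it was -0.30, and without PD replicate 1 it was -1.46. Skil, a repressor of SMAD complexes and itself a target, had 5.13 and 4.35 FPKM in PD libraries, against 7.11 and 9.59 FPKM in DMSO libraries.

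Gdf3, a relative of Nodal that also uses Tdgf1, had 141 and 82.5 FPKM in PD libraries and 109 and 45.7 in DMSO libraries. The groups overlapped, replicate 1 was again the higher library in both treatments, and the log2 difference was 0.60 (SE 0.54). Gdf1 shares its transcript with Cers1, so its reads cannot be told from those of that gene. It had 3.13 and 0.0758 FPKM in PD libraries and 2.23 and 2.17 in DMSO libraries. The type I receptors Acvr1b and Tgfbr1 lay lower in both PD libraries, for Tgfbr1 in PD replicate 1 only just. Acvr1b had 2.32 and 2.29 FPKM in PD libraries and 3.28 and 3.37 in DMSO libraries. Tgfbr1 had 2.95 and 1.99 FPKM in PD libraries and 2.97 and 3.45 in DMSO libraries. Their log2 differences were -0.39 (SE 0.29) and -0.29 (SE 0.32), and neither passed (limma adjusted p = 0.843 and 0.89). For Tgfbr1 the difference was -0.09 without PD replicate 2. Trim33, a ubiquitin ligase that binds SMADs, averaged 4.54 FPKM in PD and 4.85 in DMSO.

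On the BMP side, the ligand Bmp8a averaged 1.14 FPKM in PD and 1.24 in DMSO, and Bmp2, Bmp5, Bmp6 and Bmp7 were too low to test, at 0.22 FPKM or less in every library. The receptor Bmpr1a had 2.56 and 2.03 FPKM in PD libraries and 1.56 and 2.02 in DMSO libraries, PD replicate 2 lying just above DMSO replicate 2. Acvr1 averaged 2.19 FPKM in PD and 1.83 in DMSO. The mediators Smad1 and Smad5 were low, with means of 1.64 and 1.02 FPKM in PD and of 2.68 and 1.09 in DMSO, and overlapped between groups. Smad7, the inhibitory SMAD of both branches, had 2.42 and 1.77 FPKM in PD libraries, against 2.90 and 2.59 FPKM in DMSO libraries, without overlap. Dusp9, a phosphatase that acts on ERK and a known BMP target in these cells, had 11.9 and 12.5 FPKM in PD libraries and 11.2 and 36.5 in DMSO libraries, so that DMSO replicate 2 alone set its log2 difference of -0.70, which was 0.11 without that library. Twsg1 and Bambi, which act on BMPs outside the cell and at its receptors, had log2 differences of -0.28 and -0.57 with SEs of 0.50 and 0.56. Tgif1, a corepressor of SMADs, was abundant and even, at 133 ± 17.8 FPKM in PD and 132 ± 24.6 in DMSO (SD, n = 2 each). Of the E proteins that Id proteins bind, Tcf3 averaged 10.1 FPKM in PD and 9.45 in DMSO, and Tcf4 1.55 and 1.05 FPKM in the same order.

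**Figure D4:**
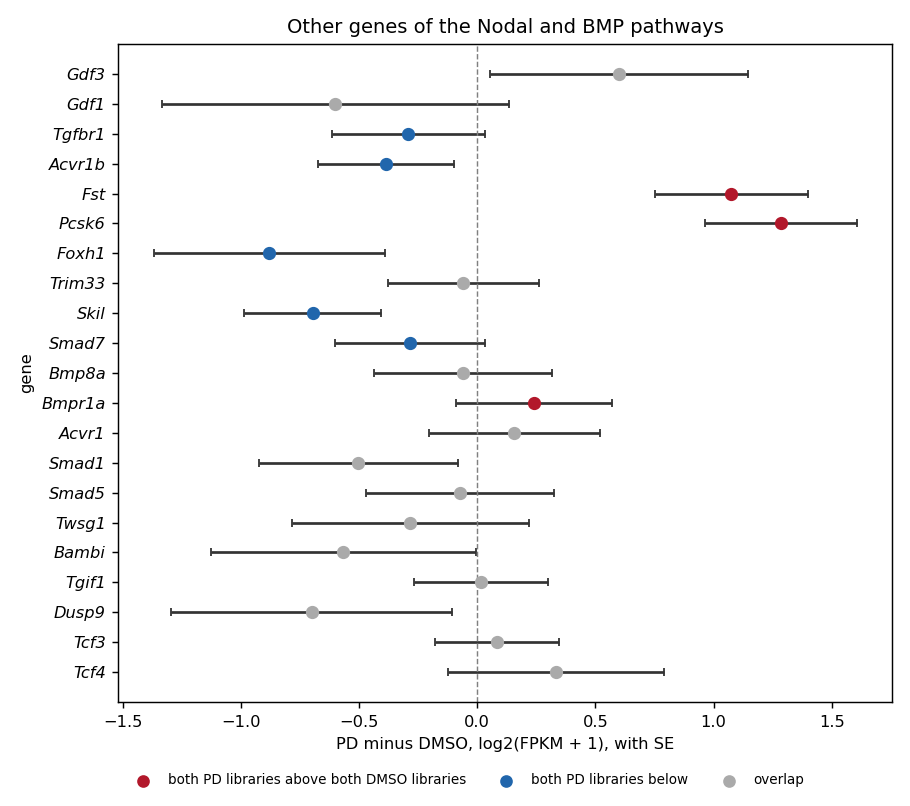
Difference between PD and DMSO on the log2(FPKM + 1) scale, with its SE, for the 21 other pathway genes named, ordered by role from ligands at the top to the E proteins at the bottom. Red marks genes with both PD libraries above both DMSO libraries, blue those with both below and grey those that overlap. Pcsk6 (1.29) and Fst (1.07) lie farthest to the right and Foxh1 (-0.88) farthest to the left.

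Genes whose values followed those of 3 members most closely were sought by distance between centred log2(FPKM + 1) values over the 4 libraries, among 3438 other protein-coding genes averaging 10 FPKM or more. Nearest to Nodal were Tmed9, at a distance of 0.10, and Ywhah, at 0.11. Nearest to Tdgf1 were Rbm14 (0.09) and Zfp428 (0.10), and nearest to Id1 were the histone gene H4c6 (0.13) and Ifitm2 (0.14). Ifitm2 had 89.7 and 35.3 FPKM in PD libraries and 112 and 43.3 in DMSO libraries. With 4 libraries such likeness is common: 304 genes lay within 0.5 of Nodal, 140 of Tdgf1 and 86 of Id1. Among the 10 genes themselves, Smad2 and Smad4 were the closest pair, at 0.21, followed by Tdgf1 and Id2, at 0.24.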

How the data were processed

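RNase I made the footprints, which per the labels' protocols were cleaned on size-exclusion columns, freed of ribosomal RNA and turned into libraries by a small RNA kit. Tools listed in the submitters' processing notes are Bowtie2, STAR, Cufflinks, FastQC and Trimmomatic, with build mm10, and no version is given in the sources used here. The authors deposited FPKM, its bounds and a status for 25170 genes in 4 libraries. 1 gene with a failed status was left out. As 14688 deposited starts were 1 below the RefSeq start, 1 was added to all.

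The 10 genes and the pathway and marker lists were chosen with earlier results of these data known. The log2(FPKM + 1) of genes averaging 1 FPKM or more was fitted in limma 3.58.1 (R 4.3.3, lmFit, eBayes with a variance trend, group as the only term, 2 residual degrees of freedom). Two-sided p-values were Benjamini-Hochberg adjusted over all 9741 genes, with a threshold of 0.05. This scale understates fold changes of low genes. Named are the 10 genes, the 2 highest further genes of each role, and the 2 nearest genes of 3 members. Depth came from the steps in FPKM: within 0.02 reads, whole reads fitted 70.9% of 10161 genes detected in every library, and 1.05% with wrong steps. Both computations were tested on simulated data. For the fit, a high share of recovered changes was required only at a small spread. Passing it does not show that changes are found at the spread of these libraries. Alternatives changed the pseudocount, filter, scaling, variance trend, block, libraries and test. No sequence of chromosome 18 is shown.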

Additional observations from a re-analysis of the deposited data

How the results depend on the processing

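None of the 10 genes and none of the 27 tested pathway genes passed in any setting that tested them (Bmp4 and Smad4 were not tested under the filter of 5 FPKM or with voom), and the lowest adjusted p over all settings (limma) was 0.524 for the 10 genes and 0.415 for the named pathway genes. Direction held in every setting that gave a value for 4 of the 10 genes (Lefty2, Bmp4, Smad2 and Smad4), for 8 of 21 named pathway genes and for 0 of the 6 nearest genes. Over all genes 3 were higher and 22 lower in PD. Voom on recovered reads gave 0 higher and 0 lower, as did protein-coding genes alone, a setting added after seeing the data. Leaving out 1 library gave 0 to 27 higher and 0 to 20 lower: 0 and 0 without DMSO replicate 1 or DMSO replicate 2, 13 and 10 without PD replicate 1, and 27 and 20 without PD replicate 2. Replicate numbers are shared between treatments but the labels pair nothing, and same-numbered deviations correlated at 0.10 over all tested genes and at 0.203 over the protein-coding ones. Replicate 1 was the higher in both treatments for 50% of the 10 genes and the lower in both for 30%, against 29.4% and 27.8% of all tested genes. With the number as a replicate block, 2 genes were higher and 17 lower and no call among the 10 genes changed, while the SE came to 0.22 for Id1, 0.24 for Id3 and 0.23 for Id2, against 0.62, 0.68 and 0.47 without it. Rescaling without small RNA genes moved the median of all genes to -0.39, and log2 differences that turned sign were -0.31 for Nodal, -0.23 for Tdgf1, -0.35 for Id2, -0.045 for Bmpr1a, -0.13 for Acvr1, -0.40 for Tgif1, -0.30 for Tcf3, -0.35 for Tmed9, -0.23 for Ywhah, -0.22 for Rbm14 and -0.15 for Zfp428. Of these, only Tgif1 lay below that median. Quantile normalization turned Id3 to 0.016, Bmp8a to 0.16 and Smad5 to 0.087, voom turned Id3 to 0.15 and Bmp8a to 0.11, and scaling to the protein-coding sum, also added, turned Tgif1 to -0.015. The cause was not tested. Leaving out 1 library turned the sign of the following, given as lowest to highest: Nodal -0.41 to 0.61, Lefty1 -0.20 to 0.042, Tdgf1 -0.40 to 0.74, Id1 -0.94 to 0.29, Id2 -0.40 to 0.47, Id3 -0.82 to 0.66, Gdf3 -0.019 to 1.22, Gdf1 -1.57 to 0.37, Trim33 -0.32 to 0.20, Bmp8a -0.23 to 0.10, Acvr1 -0.082 to 0.40, Smad5 -0.31 to 0.16, Twsg1 -0.82 to 0.26, Bambi -1.22 to 0.087, Tgif1 -0.17 to 0.21, Dusp9 -1.51 to 0.11, Tcf3 -0.064 to 0.23, Tcf4 -0.018 to 0.68, Tmed9 -0.43 to 0.55, Ywhah -0.36 to 0.68, Rbm14 -0.41 to 0.77, Zfp428 -0.30 to 0.81, H4c6 -1.03 to 0.17 and Ifitm2 -0.98 to 0.37. PD replicate 2, the shallowest library, limits genes with few reads most. The smallest reads that fit there were 5 for Id2, at a mean of 14.3 FPKM, and 53 for Smad2, at 5.22.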
